A study of Mus musculus with 74 samples.

Results

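The step from 3 to 6 h after activation of naive CD4+ T cells was read on 16 of the 74 bead arrays of a time course of T helper (Th) cell differentiation. The members are the 8 arrays taken at 6 h and the 8 arrays taken at 3 h, chosen by their labelled time point and culture alone. Naive CD4+ CD62Lhi T cells were enriched by magnetic sorting from spleen and lymph node suspensions pooled over Balb/c mice aged 5 to 8 weeks. All cultures received plate-bound antibody against CD3 and soluble antibody against CD28, which stand in for the antigen and costimulatory signals. Th0 cultures also held blocking antibodies against IFN-γ, IL-4 and IL-12. Th1 cultures held IL-12 and antibody against IL-4. Th2 cultures held IL-4 and antibodies against IL-12 and IFN-γ. Hybrid Th1/2 cultures (labelled ThMix) held both IL-12 and IL-4 and no blocking antibody. Each of the 4 cultures was sampled at each time point in 2 experiments, which gave 8 pairs of a 3 h and a 6 h array from the same culture and experiment. The 8 pairs thus rest on only 2 experiments with pooled mice, and the sources used here do not say whether cultures within an experiment shared one cell preparation. Differences measure the spread between these pairs.

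T cell activation is known to unfold in waves. Receptor signals first reach transcription factors that are already present in the cell, and these switch on immediate early genes such as the *Fos*, *Egr* and *Nr4a* families within minutes to hours, without a need for new protein. Many of these transcripts are short-lived and induce their own inhibitors. Secondary genes need the newly made proteins, and they include cytokines, metabolic enzymes and the machinery for growth that precedes the first division. The comparison of 6 h with 3 h asks which early transcripts had begun to decay and which later ones had started.

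Levels are log2 values of the normalised intensity. For each gene the lowest value, the median and the highest value over the 8 arrays of a time point are given, followed by the step, which is the mean log2 difference between 6 h and 3 h over the 8 pairs with its standard error (SE, n = 8 pairs). A gene is said to have risen or fallen when the step was at least 2-fold (1 on the log2 scale) at an adjusted p under 0.05 (limma on the paired differences, Benjamini-Hochberg over all 13817 genes tested). Low intensities lie close to the array background and the brightest probes close to saturation, so that folds at both ends are compressed. All 16 arrays were closer to the mean of their own labelled time point than to the other, and their median intensities lay between 107.8 and 110.0. Of 8 transcripts that mark CD4+ T cells, 7 were measured, and their summed linear intensity lay between 70312 and 90746 at 3 h and between 52682 and 68480 at 6 h. *Cd3e*, a subunit of the T cell receptor complex, had a mean level of 14.07 at 3 h and 13.84 at 6 h, and *Cd4* itself 8.61 and 8.30.

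Between 3 and 6 h, 266 of 13817 genes rose (1.93%) and 316 fell (2.29%), which together is 4.21% of the genes tested. Of these 582 genes, 581 moved in the same direction in all 8 pairs. A step of 4-fold or more was seen for 10 genes that rose and 5 that fell. The adjusted p alone was under 0.05 for 49.3% of all genes, 3609 of them higher and 3206 lower at 6 h, so that most measurable steps were smaller than 2-fold. The 8 arrays at 6 h and the 8 at 3 h did not overlap for 22.4% of all genes, and for 254 of the genes that rose and 280 of those that fell. The median step over all genes was 0.01. Counts within the gene lists below stand beside these shares of 1.93% and 2.29%, and 1 called member is no result about its list. List counts at an unadjusted p under 0.05 (limma) stand beside 3900 of all 13817 genes higher and 3437 lower. In single pairs between 257 and 454 genes were at least 2-fold higher and between 252 and 454 at least 2-fold lower at 6 h, and the steps of a pair correlated with the mean of the other pairs across genes at r = 0.860 to 0.930, a description over genes that are not independent. In bulk RNA, fewer cells of a kind and less RNA per cell cannot be told apart.

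**Figure D1:**
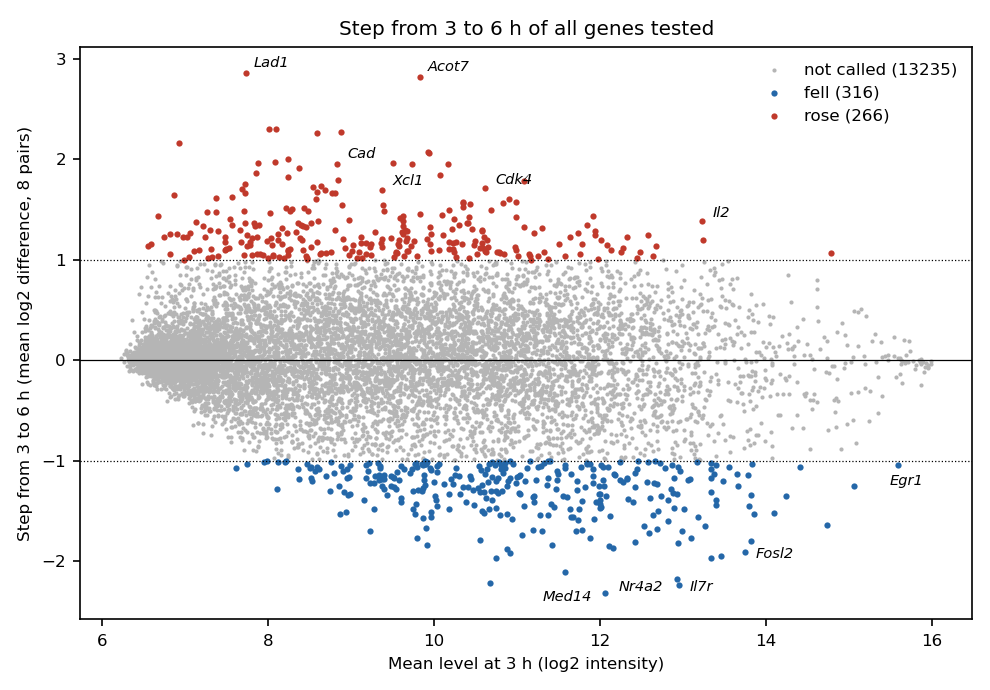
Each point is 1 of 13817 genes, with its mean level at 3 h (log2 intensity) on the x axis and its step from 3 to 6 h (mean log2 difference over 8 pairs) on the y axis. The 266 genes that rose and the 316 that fell are coloured and spread over most of the range of levels, with the dashed lines at 2-fold.

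The same genes were read in each experiment by itself. Experiment 1 alone gave 231 genes at least 2-fold higher and 288 at least 2-fold lower, and experiment 2 alone 371 and 384. The experiments shared 175 of the rises, which is 75.8% of those in experiment 1 and 47.2% of those in experiment 2. They shared 221 of the falls, or 76.7% and 57.6%. No gene had a 2-fold step in opposite directions. The size of the step differed between the experiments for 1145 genes (adjusted p under 0.05), among them 75 of the genes that rose and 47 of those that fell. Among the 156 genes named here it differed for 39. Of these, 18 had risen, 16 of them with the larger step in experiment 2, 9 had fallen, 7 of them with the larger fall in experiment 1, and 12 were not called. Another 13 named genes that rose or fell passed 2-fold in only 1 experiment without such a difference. The steps in each experiment are given below for these genes. The call uses the brightest probe of a gene, and where the mean over all its probes was under 2-fold, that step is also given. The same holds for 3 uncalled genes whose mean over all probes passed 2-fold.

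Of 28 immediate early transcription factors measured, 12 fell, where 2.29% of all genes did, and none rose (0 also at an unadjusted p under 0.05 in limma). Their median step was -0.92 against 0.01 over all genes. The members that fell were *Fos*, *Fosb*, *Fosl2*, *Egr1*, *Egr2*, *Egr3*, *Nr4a2*, *Nr4a3*, *Crem*, *Atf3*, *Klf6* and *Csrnp1*. Of the 28, 16 were at least 2-fold above naive cells at 3 h in the mean of both experiments. Among those that fell, the mean change from 0 to 3 h was only 0.24 for *Fos* and was -0.75 for *Klf6*. In the same mean, the other falling members were each at least 2-fold above naive cells at 3 h. For *Fosb* this held against the naive cells of experiment 1 alone. Its 0 h level in experiment 2, given below, lay above all its arrays at 3 h. *Nr4a2*, an orphan nuclear receptor of the NR4A family, lay between 12.64 and 13.26 at 3 h (median 12.93) and between 10.18 and 11.26 at 6 h (median 10.79). It fell by 2.18 (SE 0.14, adjusted p = 6.59e-09) and the arrays of both time points did not overlap. Its fall was larger in experiment 1, where the step was -2.63, than in experiment 2, where it was -1.72 (adjusted p = 0.00156 for the difference). Its relative *Nr4a3* lay between 10.90 and 11.65 at 3 h (median 11.17) and between 9.16 and 10.07 at 6 h (median 9.48) and fell by 1.70 (SE 0.11, adjusted p = 5.53e-09), with steps of -2.01 in experiment 1 and -1.39 in experiment 2 (adjusted p = 0.0101 for the difference). The founding member *Nr4a1* lay between 7.19 and 8.35 at 3 h (median 7.58) and between 6.62 and 7.65 at 6 h (median 7.18), and its step of -0.52 (SE 0.07, adjusted p = 2.41e-05) did not reach 2-fold.

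Of the FOS proteins that pair with JUN proteins in the AP-1 factor, *Fosl2* lay between 13.61 and 13.90 at 3 h (median 13.75) and between 11.38 and 12.33 at 6 h (median 11.78). *Fosl2* fell by 1.91 (SE 0.09, adjusted p = 4.65e-10), and all 8 arrays at 6 h were below all 8 at 3 h. Its step was -2.18 in experiment 1 and -1.64 in experiment 2 (adjusted p = 0.00975 for the difference). *Fosb* lay between 10.49 and 11.30 at 3 h (median 10.90) and between 8.60 and 9.60 at 6 h (median 8.88) and fell by 1.92 (SE 0.06, adjusted p = 2.34e-11), again without overlap. *Fos* itself lay between 12.08 and 13.06 at 3 h (median 12.82) and between 10.78 and 12.16 at 6 h (median 11.38) and fell by 1.35 (SE 0.08, adjusted p = 2.76e-09), and here the highest array at 6 h was above the lowest at 3 h. The JUN partners were not called. *Junb* had a step of -0.96 (SE 0.06, adjusted p = 1.15e-08), carried by 1 of its 2 probes, *Jund* of -0.75 and *Jun* of -0.50, all below 2-fold. The *Jun* step was -0.28 in experiment 1 and -0.72 in experiment 2 (adjusted p = 0.0417 for the difference).

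*Crem*, whose short products repress cAMP-responsive promoters, lay between 11.98 and 12.43 at 3 h (median 12.13) and between 9.86 and 10.67 at 6 h (median 10.32) and fell by 1.87 (SE 0.09, adjusted p = 6.56e-10), with all of its 5 probes in the same direction. Among the EGR zinc-finger factors *Egr3* fell by 1.64 (SE 0.06, adjusted p = 3.51e-11), *Egr2* by 1.07 (SE 0.05, adjusted p = 5.09e-10) and *Egr1* by 1.04 (SE 0.05, adjusted p = 2.16e-10). The EGR corepressor *Nab2* had a step of -0.94, below the threshold. *Csrnp1*, a nuclear protein of the immediate early class, fell by 1.68 (SE 0.09, adjusted p = 8.85e-10). *Atf3*, a stress-induced member of the ATF/CREB family, fell by 1.35 (SE 0.09, adjusted p = 1.67e-08), and the Krüppel-like factor *Klf6* by 1.19 (SE 0.05, adjusted p = 1.37e-10). The mean step over all probes was -0.995 for *Klf6* and -0.92 for *Egr3*, under 2-fold. *Myc*, which drives growth and metabolism in activated T cells, was not called. Its level lay between 10.28 and 11.50 at 3 h (median 10.78) and between 10.29 and 11.28 at 6 h (median 10.71), the step was -0.07 (SE 0.10, adjusted p = 0.608) and the arrays overlapped. It was -0.31 in experiment 1 and 0.17 in experiment 2 (adjusted p = 0.0463 for the difference).

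**Figure D2:**
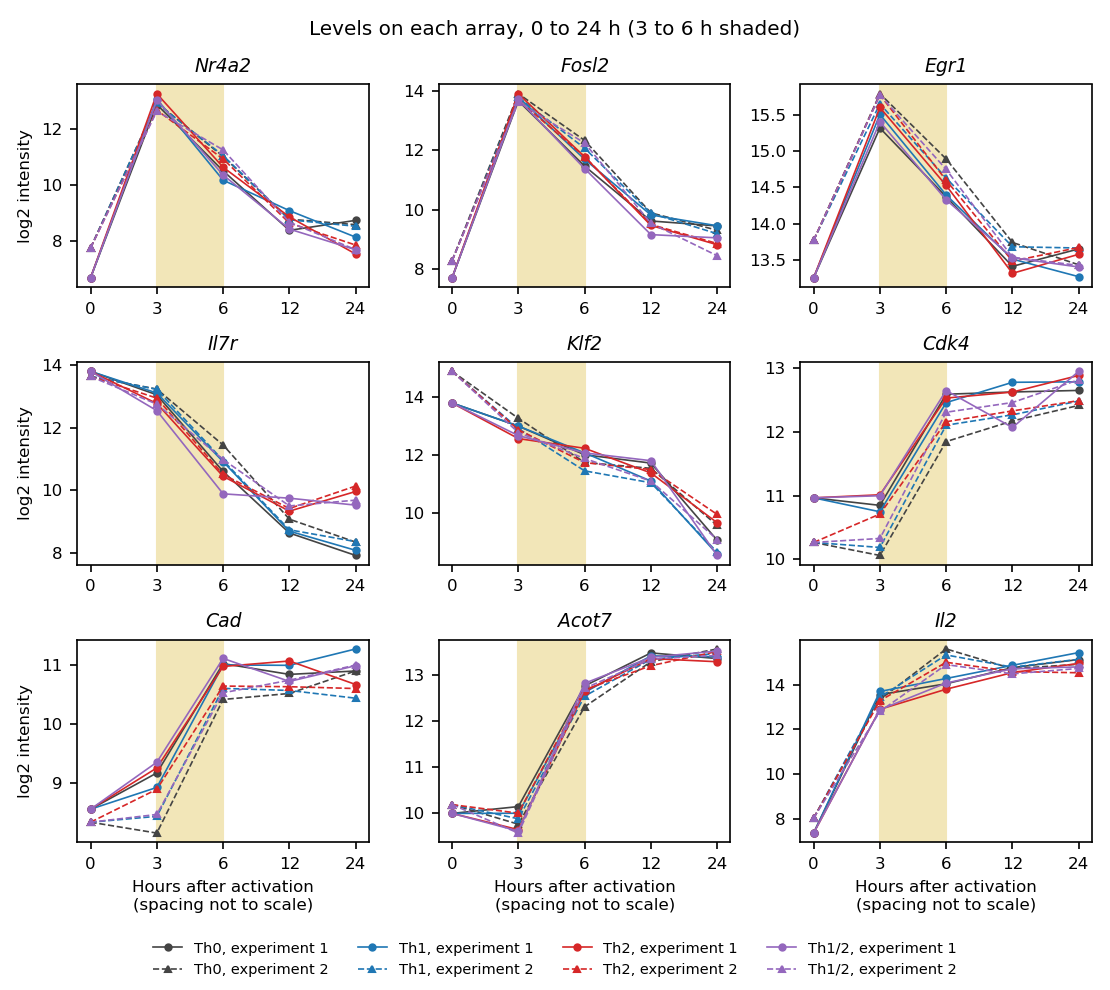
Levels (log2 intensity, y axis) of 9 genes on every array from 0 to 24 h (x axis, hours, spacing not to scale), with cultures in colours, experiments as solid and dashed lines and the 3 to 6 h window shaded. *Nr4a2* and *Fosl2* peaked at 3 h and dropped within the window, *Il7r* dropped from a high naive level, and *Cad* and *Acot7* stayed near their 0 h level until 3 h and were higher from 6 h on.

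Known feedback inhibitors of the immediate signals were read as a group of their own, whether or not they were induced here. Of 20 feedback inhibitors of MAP kinase, calcium and G-protein signalling, 4 fell and 1 rose, with a median step of -0.45. At 3 h, 11 of the 20 were at least 2-fold above naive cells. For the members that fell, the mean change from 0 to 3 h was 2.53 for *Trib1*, 0.52 for *Pde4d*, 0.16 for *Dusp10* and -0.21 for *Dusp1*. For *Dusp1* this mean joins opposite changes. Every 3 h array lay above its 0 h level in experiment 1 and below that in experiment 2. *Dusp1*, a nuclear phosphatase of MAP kinases, lay between 12.57 and 13.97 at 3 h (median 13.40) and between 11.30 and 12.68 at 6 h (median 12.03) and fell by 1.31 (SE 0.06, adjusted p = 3.12e-10), with overlapping arrays. *Dusp10*, which acts on p38 and JNK, fell by 1.13 (SE 0.08, adjusted p = 1.5e-08). The cAMP phosphodiesterase *Pde4d* fell by 1.33 (SE 0.06, adjusted p = 4.43e-10), though only 2 of its 4 probes moved in that direction and their mean over all probes was -0.34. *Trib1*, a pseudokinase that guides degradation of C/EBP factors, fell by 1.33 (SE 0.17, adjusted p = 9.35e-06), with -0.77 over all its probes, and its step depended on IL-4 as described below. *Rgs16*, which ends signals from G-protein-coupled receptors, was the member that rose, with levels between 10.07 and 11.19 at 3 h (median 10.55) and between 11.47 and 12.22 at 6 h (median 11.79) and a step of 1.23 (SE 0.06, adjusted p = 2.87e-10). The most abundant member, *Dusp2*, stayed high, at a median of 14.95 at 3 h and 14.28 at 6 h.

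Among 12 NF-kB inhibitors only *Tnfaip3* fell and none rose (1 was higher at an unadjusted p under 0.05). *Tnfaip3* encodes the ubiquitin-editing enzyme A20. It lay between 12.61 and 13.72 at 3 h (median 13.14) and between 11.48 and 12.82 at 6 h (median 12.12), fell by 1.02 (SE 0.07, adjusted p = 1.2e-08) and its arrays overlapped. Its fall passed 2-fold in experiment 1, with a step of -1.18, and not in experiment 2, with -0.86. The atypical IkB proteins *Nfkbiz* and *Nfkbid* had steps of -0.94 and -0.69, the latter with -0.89 in experiment 1 and -0.50 in experiment 2 (adjusted p = 0.0288 for the difference). Among 8 SOCS proteins, which block cytokine receptor signals, *Socs3* alone fell and none rose (0 at an unadjusted p under 0.05). *Socs3* lay between 10.83 and 12.29 at 3 h (median 11.65) and between 9.28 and 10.96 at 6 h (median 10.15), fell by 1.48 (SE 0.09, adjusted p = 3.32e-09) and its arrays overlapped. Its step was -1.71 in experiment 1 and -1.25 in experiment 2 (adjusted p = 0.0299 for the difference). *Cish* stayed at a median of 14.50 at 3 h and 14.17 at 6 h. Of 17 regulators of mRNA decay, 3 fell and none rose (4 were higher at an unadjusted p under 0.05). *Zfp36*, tristetraprolin, which binds AU-rich elements of short-lived transcripts, lay between 13.89 and 14.62 at 3 h (median 14.24) and between 12.49 and 13.14 at 6 h (median 12.91) and fell by 1.35 (SE 0.08, adjusted p = 3.24e-09) without overlap, with a step of -1.14 in experiment 1 and -1.56 in experiment 2 (adjusted p = 0.0343 for the difference). The antiproliferative deadenylase partners *Tob1* and *Tob2* fell by 1.18 and 1.02. The step of *Tob2* was -0.93 in experiment 1 and -1.12 in experiment 2, and -0.50 over all its probes. The bright family member *Zfp36l1* had a step of -0.25, near the upper end of the array's range. Between 0 and 3 h the mean change was 1.06 for *Tnfaip3*, 0.06 for *Socs3*, 0.32 for *Zfp36*, 0.22 for *Tob1* and 1.35 for *Tob2*. For *Tnfaip3* this mean joins opposite changes. Every 3 h array lay above its 0 h level in experiment 1 and below that in experiment 2.

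The fall of the early response was also read across all genes, with the experiments kept apart because the 0 to 3 h and the 3 to 6 h difference share the 3 h arrays. Genes at least 2-fold above the naive cells at 3 h in experiment 1 numbered 752. In experiment 2, 62 of them (8.24%) were at least 2-fold lower at 6 h than at 3 h and 103 (13.7%) were at least 2-fold higher, with a median step of 0.19. Over all genes these shares were 2.78% and 2.69%. Taken the other way, 579 genes were at least 2-fold above naive cells at 3 h in experiment 2, and in experiment 1, 62 of them (10.7%) were lower and 14 (2.42%) higher, with a median step of -0.11, against 2.08% and 1.67% of all genes. Both ways, the share that decayed by 2-fold was above that of all genes, while most early genes stayed within 2-fold of their 3 h level. A share above that of all genes was not particular to induced genes. Of the 814 genes at least 2-fold below naive cells at 3 h in experiment 1, 119 (14.6%) fell by a further 2-fold in experiment 2, and of the 597 in experiment 2, 55 (9.21%) did in experiment 1. The share that went on rising differed between the 2 ways of reading. Among genes at least 4-fold above naive cells, 13.3% of 166 were lower and 14.5% higher by 2-fold in experiment 2. In experiment 1, 27.6% of 105 were lower and 0.95% higher. The shares are descriptions and carry no test.

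The naive cells themselves differed between the experiments, which each hold 1 array at 0 h. At 0 h, 11 of the 28 immediate early factors were at least 2-fold higher in experiment 2 and none lower, as were 7 of the 20 feedback inhibitors and 4 of the 12 NF-kB inhibitors, against 140 higher and 52 lower of all 13817 genes. *Fosb* had a 0 h level of 7.47 in experiment 1 and 11.48 in experiment 2, *Tnfaip3* of 9.92 and 14.32, and *Dusp1* of 12.22 and 14.88. At 3 h fewer genes differed by 2-fold, with 11 higher and 18 lower in experiment 2. Median differences of the lists (experiment 2 minus experiment 1) ran from -0.47 for the tRNA synthetases to 0.27 for the immediate early factors. They were -0.42 for nucleotide synthesis and -0.24 for ribosome biogenesis, against 0.01 over all genes. The part of these 3 h differences in the steps was not tested. The part of this 0 h difference in the shares given above was not tested, and the steps from 3 to 6 h do not use the 0 h arrays.

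Among the 12 largest falls of all genes, 4 were immediate early factors (*Nr4a2*, *Fosb*, *Fosl2* and *Crem*) and 1 was the naive cell receptor *Il7r*. *Med14*, a core subunit of the Mediator complex that links transcription factors to RNA polymerase II, had the largest fall of all genes. It lay between 11.75 and 12.55 at 3 h (median 12.04) and between 9.41 and 10.24 at 6 h (median 9.74) and fell by 2.32 (SE 0.07, adjusted p = 1.31e-11), with its 3 probes in 1 direction and no overlap. At 0 h its mean was 8.21, so that the 3 h level stood above both neighbours in time. *Ramp3*, a partner protein of G-protein-coupled receptors, lay between 10.26 and 12.72 at 3 h (median 11.61) and between 8.57 and 10.27 at 6 h (median 9.57) and fell by 2.11 (SE 0.10, adjusted p = 2.7e-10). The *Ramp3* arrays of the time points overlapped, while each of the 8 pairs fell. Its step was -2.38 in experiment 1 and -1.84 in experiment 2 (adjusted p = 0.0145 for the difference). *Vps37b*, a subunit of the ESCRT-I sorting complex, fell by 1.97 (SE 0.08, adjusted p = 8.13e-11) from a median of 13.27. *Rgcc*, a regulator of the cell cycle, fell by 1.95 (SE 0.07, adjusted p = 5.95e-11) from a median of 13.39. *Plaur*, the urokinase receptor, fell by 1.88 (SE 0.11, adjusted p = 2.8e-09) from a median of 10.88. *Pou6f1*, a POU-domain transcription factor, fell by 2.22 (SE 0.07, adjusted p = 2.64e-11), in 1 of its 2 probes. *Mxd4*, which competes with MYC for the partner MAX, lay between 10.22 and 11.22 at 3 h (median 10.76) and between 8.46 and 8.92 at 6 h (median 8.85) and fell by 1.97 (SE 0.08, adjusted p = 1.06e-10). *Mxd4* had been higher in naive cells, at 12.14, than at 3 h.

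**Figure D3:**
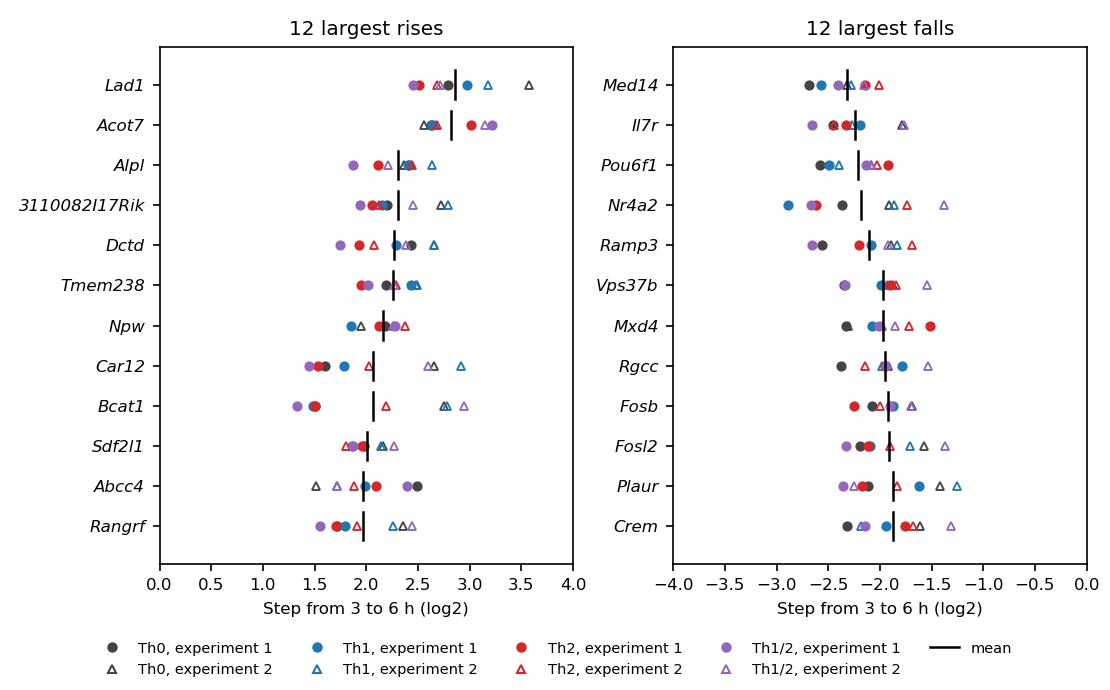
The 12 largest rises and the 12 largest falls, with the step of each of the 8 pairs (log2, x axis) as a point coloured by culture and shaped by experiment, and the mean as a bar. All 8 pairs of each gene lie on the same side of 0, and the means run from 2.86 for *Lad1* to -2.32 for *Med14*.

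Promoters of 3 of these falling genes are shown because immediate early genes and growth genes are classically tied to different sequence motifs. Only genes with a match to a searched motif in the 250 bases before the start were eligible. Each promoter shown was thus bound to hold a match, and larger falls such as *Med14* and *Il7r* are not shown. The 5 motifs searched on both strands, in windows of 300 bases around each start (RefSeq, GRCm38.p6), were the AP-1 site TGANTCA, the cAMP response element TGACGTCA, the E-box CACGTG, and the CArG box and NF-kB site by name. Promoters were found for 11117 of 13817 genes, 245 of the 316 that fell and 225 of the 266 that rose. The NF-kB site stood in 6.03% of all promoters, 8.57% of those of falling and 4.44% of those of rising genes. The AP-1 site stood in 7.11%, 8.57% and 5.78% in the same order, the CArG box in 1.66%, 2.86% and 1.33%, the cAMP response element in 3.2%, 2.04% and 4%, and the E-box in 10.9%, 10.6% and 16%. A match describes the letters and is no sign of binding. The 250 bases before the start follow, 5′ to 3′, with the matched motif in capitals, which is the NF-kB site in *Ramp3* (51 bases before the start) and *Fosb* (188 bases before) and the E-box in *Mxd4* (219 bases before).
Ramp3 (chr11:6658283-6658532, plus strand): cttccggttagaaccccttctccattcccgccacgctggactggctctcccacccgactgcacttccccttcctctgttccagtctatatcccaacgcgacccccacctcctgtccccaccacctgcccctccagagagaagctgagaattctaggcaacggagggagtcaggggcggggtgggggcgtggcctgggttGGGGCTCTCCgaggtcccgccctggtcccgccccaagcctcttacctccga
Fosb (chr7:19310046-19310295, minus strand): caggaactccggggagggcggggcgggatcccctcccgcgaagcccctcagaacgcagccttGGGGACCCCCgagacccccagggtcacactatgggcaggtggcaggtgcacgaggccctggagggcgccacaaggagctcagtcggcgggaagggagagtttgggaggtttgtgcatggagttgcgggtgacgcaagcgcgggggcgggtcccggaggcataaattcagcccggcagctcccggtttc
Mxd4 (chr5:34187711-34187960, minus strand): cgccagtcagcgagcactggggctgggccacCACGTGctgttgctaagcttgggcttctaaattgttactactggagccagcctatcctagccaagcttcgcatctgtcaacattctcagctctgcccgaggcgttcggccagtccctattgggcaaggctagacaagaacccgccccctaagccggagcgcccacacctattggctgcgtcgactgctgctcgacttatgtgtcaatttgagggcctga

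Transcripts that mark quiescent and naive T cells formed the other falling group. Of 26 measured, 9 fell and none rose (3 were higher at an unadjusted p under 0.05), with a median step of -0.76. *Il7r*, the receptor chain for the survival cytokine IL-7, lay between 12.55 and 13.24 at 3 h (median 13.00) and between 9.89 and 11.45 at 6 h (median 10.76), fell by 2.24 (SE 0.09, adjusted p = 8.66e-11) and showed no overlap. Its mean was 13.73 in naive cells, and its fall from 3 to 6 h exceeded that from 0 to 3 h in size. *Il6ra*, the IL-6 receptor, fell by 1.69 (SE 0.05, adjusted p = 9.94e-12), and its 8 steps lay between -1.86 and -1.54. *Igfbp4*, a secreted binder of insulin-like growth factors, fell by 1.45 (SE 0.05, adjusted p = 2.09e-11) and had its largest drop before 3 h, from a mean of 13.72 to 11.09. *Tsc22d3*, the glucocorticoid-induced leucine zipper, fell by 1.39 (SE 0.06, adjusted p = 2.25e-10), with -0.85 over all its probes. *Pik3ip1*, an inhibitor of PI3 kinase, fell by 1.29. *Rasgrp2*, an activator of the small GTPase RAP1, fell by 1.10. The integrin chain *Itga6* fell by 1.06, as did *Txnip*, an inhibitor of glucose uptake, by 1.06. The step of *Txnip* was -0.85 in experiment 1 and -1.28 in experiment 2 (adjusted p = 0.032 for the difference). *Lef1*, a transcription factor of naive T cells, fell by 1.01, with steps of -1.10 in experiment 1 and -0.92 in experiment 2. Over all probes the mean step was -0.59 for *Lef1*, -0.90 for *Rasgrp2* and -0.87 for *Itga6*. *Klf2*, which maintains quiescence and homing receptors, lay between 12.57 and 13.27 at 3 h (median 12.90) and between 11.46 and 12.24 at 6 h (median 11.95), and its step of -0.98 (SE 0.11, adjusted p = 1.84e-06) was just short of 2-fold, with -0.71 in experiment 1 and -1.25 in experiment 2 (adjusted p = 0.041 for the difference). Not every gene of the group took part. *Satb1*, a chromatin organiser, had a step of -0.17, and *Ccr7*, the lymph node homing receptor, of 0.42.

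Of 7 measured GIMAP proteins, GTPases of the lymphocyte survival family, *Gimap6* fell by 1.18 and *Gimap9* by 1.06, and none rose (0 at an unadjusted p under 0.05). Both were just under 2-fold in experiment 1, at -0.97 and -0.95, against -1.38 and -1.17 in experiment 2. Of 22 components of the T cell receptor complex and its proximal signalling, none rose and none fell by 2-fold. Of them 3 were higher and 13 lower at an unadjusted p under 0.05 in limma, against 3900 and 3437 of all 13817 genes. *Cd6*, a bright member, had a step of 0.11 and *Cd3g* of -0.20, and the widest step was that of *Lcp2*, the adaptor SLP-76, at -0.98.

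The 12 largest rises were of genes from several functional classes. *Lad1*, which encodes the anchoring protein ladinin, had the largest rise. It lay between 7.19 and 8.18 at 3 h (median 7.84) and between 10.17 and 10.97 at 6 h (median 10.57) and rose by 2.86 (SE 0.10, adjusted p = 3.97e-11), with no overlap between time points. *Acot7*, an acyl-CoA thioesterase, lay between 9.57 and 10.15 at 3 h (median 9.82) and between 12.32 and 12.83 at 6 h (median 12.67) and rose by 2.82 (SE 0.08, adjusted p = 9.94e-12), with its 4 probes in the same direction. At 0 h *Acot7* had a mean of 10.09, so that the start of its rise fell after the 3 h sample. *Alpl*, the tissue-nonspecific alkaline phosphatase, rose by 2.31 (SE 0.07, adjusted p = 1.77e-11) from a median of 7.99. *Dctd*, a deaminase that supplies dUMP for thymidylate synthesis, rose by 2.27 (SE 0.09, adjusted p = 1.01e-10) from a median of 8.94. *Npw*, the precursor of neuropeptide W, rose by 2.16 (SE 0.06, adjusted p = 9.94e-12) from a median of 6.91, a level at which probes lie near the background. *Rangrf*, a release factor for the transport GTPase RAN, rose by 1.97 (SE 0.09, adjusted p = 3.95e-10), and *Abcc4*, an efflux transporter, by 1.97 (SE 0.09, adjusted p = 4.32e-10). The step of *Rangrf* was 1.70 in experiment 1 and 2.24 in experiment 2 (adjusted p = 0.01 for the difference). That of *Abcc4* was 2.24 in experiment 1 and 1.70 in experiment 2 (adjusted p = 0.0135 for the difference). *Abcc4* had been higher in naive cells, at 9.20, than at 3 h. *Sdf2l1*, a resident protein of the endoplasmic reticulum, rose by 2.01 (SE 0.06, adjusted p = 9.94e-12). The transmembrane protein *Tmem238* rose by 2.26 and the unannotated *3110082I17Rik* by 2.30, the latter with 2.09 in experiment 1 and 2.52 in experiment 2 (adjusted p = 0.0492 for the difference).

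A further pair of the largest rises also differed between the experiments. *Bcat1*, the cytosolic transaminase of branched-chain amino acids, lay between 8.77 and 10.85 at 3 h (median 10.14) and between 11.52 and 12.20 at 6 h (median 12.05) and rose by 2.06 (SE 0.18, adjusted p = 1.33e-07), with a step of 1.46 in experiment 1 and 2.67 in experiment 2 (adjusted p = 0.000515 for the difference). *Car12*, a membrane carbonic anhydrase, rose by 2.07 (SE 0.15, adjusted p = 2.4e-08), with 1.59 and 2.55 in experiments 1 and 2 (adjusted p = 0.00234 for the difference). Both genes rose at least 2-fold in each experiment.

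The promoters of 3 of the rising genes are shown in the same way, as the 250 bases before the start with the matched motif in capitals. They too were chosen among genes with a match. The motif is an E-box in *3110082I17Rik* (174 bases before the start) and *Abcc4* (205 bases before) and the AP-1 site in *Bcat1* (24 bases before). *Bcat1* and *Abcc4* have 2 starts in the table, of which 1 is shown.
3110082I17Rik (chr5:139460535-139460784, minus strand): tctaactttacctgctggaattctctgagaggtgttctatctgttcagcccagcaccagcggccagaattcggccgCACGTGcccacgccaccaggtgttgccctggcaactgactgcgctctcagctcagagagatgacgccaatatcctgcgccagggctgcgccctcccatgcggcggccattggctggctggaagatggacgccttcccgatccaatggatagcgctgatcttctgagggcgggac
Abcc4 (chr14:118706220-118706469, minus strand): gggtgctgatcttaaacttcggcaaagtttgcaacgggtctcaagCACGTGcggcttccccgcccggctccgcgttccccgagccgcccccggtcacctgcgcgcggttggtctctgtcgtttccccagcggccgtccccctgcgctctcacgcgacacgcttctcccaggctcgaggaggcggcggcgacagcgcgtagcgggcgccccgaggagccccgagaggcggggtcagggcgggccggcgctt
Bcat1 (chr6:145076158-145076407, minus strand): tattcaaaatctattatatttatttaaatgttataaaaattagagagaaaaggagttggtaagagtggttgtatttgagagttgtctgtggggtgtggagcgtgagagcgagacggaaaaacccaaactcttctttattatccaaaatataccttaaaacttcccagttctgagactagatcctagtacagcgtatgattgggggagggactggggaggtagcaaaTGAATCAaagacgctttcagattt

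The synthesis of nucleotides, polyamines and one-carbon units was the metabolic group with the most members called. Of 23 measured genes, 7 rose and none fell (0 at an unadjusted p under 0.05), and the median step was 0.83. *Cad*, the enzyme of the first steps of pyrimidine synthesis, lay between 8.16 and 9.36 at 3 h (median 8.91) and between 10.42 and 11.11 at 6 h (median 10.81) and rose by 1.95 (SE 0.07, adjusted p = 3.2e-11). No *Cad* array at 6 h was as low as any at 3 h. *Dhodh*, which carries pyrimidine synthesis on in the mitochondrion, rose by 1.19. Of the purine enzymes, *Gart* lay between 9.83 and 10.84 at 3 h (median 10.48) and between 11.39 and 12.13 at 6 h (median 11.81) and rose by 1.37 (SE 0.06, adjusted p = 1.46e-10), and *Pfas* rose by 1.31 (SE 0.09, adjusted p = 1.9e-08). Of the folate enzymes, *Mthfd1* lay between 9.84 and 10.92 at 3 h (median 10.37) and between 11.80 and 11.98 at 6 h (median 11.87) and rose by 1.53 (SE 0.10, adjusted p = 1.22e-08), and the mitochondrial *Shmt2* rose by 1.30. *Srm*, spermidine synthase, rose by 1.04. Its step was 0.73 in experiment 1 and 1.34 in experiment 2 (adjusted p = 0.0111 for the difference), so that it passed 2-fold only in experiment 2. The step of *Pfas* was 1.04 in experiment 1 and 1.57 in experiment 2 (adjusted p = 0.0116 for the difference), and that of *Shmt2* was 1.01 in experiment 1 and 1.6 in experiment 2 (adjusted p = 0.00819 for the difference). Over all probes the mean step was 0.69 for *Pfas* and 0.60 for *Dhodh*, both under 2-fold. *Odc1*, the rate-limiting enzyme of polyamine synthesis, was already at a median of 13.49 at 3 h and had a step of 0.52 (SE 0.07, adjusted p = 9.71e-06), below 2-fold. The CTP synthase *Ctps* likewise had a median of 13.00 at 3 h and a step of 0.58, with 0.27 in experiment 1 and 0.89 in experiment 2 (adjusted p = 0.0113 for the difference).

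Groups of the protein synthesis and folding machinery moved by less than 2-fold in most of their members. Among all 13817 genes, 3609 were higher at 6 h at an adjusted p under 0.05 and 1.93% rose. Of 49 ribosome biogenesis genes, 3 rose, and 46 were higher at 6 h at an adjusted p under 0.05, with a median step of 0.51. *Ubtf*, a factor of RNA polymerase I at ribosomal DNA, lay between 10.33 and 10.62 at 3 h (median 10.37) and between 11.57 and 12.07 at 6 h (median 11.75) and rose by 1.37 (SE 0.05, adjusted p = 8.71e-11). Its 3 h level was below the naive mean of 11.41. *Nhp2*, a protein of the H/ACA particles that modify ribosomal RNA, rose by 1.14 (SE 0.08, adjusted p = 2.12e-08), and the nucleolar *Lyar* by 1.06 (SE 0.09, adjusted p = 1.96e-07). *Lyar* passed 2-fold only in experiment 2, with 0.76 in experiment 1 and 1.35 in experiment 2 (adjusted p = 0.00359 for the difference), and *Nhp2* had 0.94 in experiment 1 and 1.33 in experiment 2. Over all probes none of these 3 genes reached 2-fold, at 0.80 for *Ubtf*, 0.85 for *Nhp2* and 0.60 for *Lyar*. The nucleolar *Npm1* and *Ncl* had steps of 0.51 and 0.98. The step of *Ncl* was 0.70 in experiment 1 and 1.27 in experiment 2 (adjusted p = 0.00999 for the difference), and 1.01 over all its probes. The 25 ribosomal proteins stayed at a median step of 0.01, with none called (7 higher and 2 lower at an unadjusted p under 0.05), and 19 of them had a mean of at least 14 at 3 h, near the upper end of the range. The lowest mean was 6.69 and the highest, that of *Rps24*, was 15.95.

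All 25 chaperones were higher at 6 h at an adjusted p under 0.05, 4 of them by 2-fold, with a median step of 0.61. Among all 13817 genes, 3609 were higher by that adjusted p and 1.93% rose by 2-fold. *Hspe1*, the mitochondrial co-chaperonin, lay between 10.72 and 11.15 at 3 h (median 10.78) and between 12.02 and 12.82 at 6 h (median 12.31) and rose by 1.57 (SE 0.07, adjusted p = 4.1e-10). Its partner *Hspd1* rose by 1.2 (SE 0.08, adjusted p = 1.58e-08), the cytosolic *Hsph1* by 1.44 (SE 0.06, adjusted p = 2.64e-10) and the disulfide isomerase *Pdia6* by 1.23 (SE 0.05, adjusted p = 1.74e-10). The step of *Hspe1* was 1.37 in experiment 1 and 1.76 in experiment 2 (adjusted p = 0.0333 for the difference). That of *Hspd1* was 0.99 in experiment 1 and 1.41 in experiment 2 (adjusted p = 0.0395 for the difference), just under 2-fold in the first. Over all probes *Pdia6* had 0.84. Of these, *Hspe1* and *Hspd1* fold proteins together as the mitochondrial chaperonin. The bright *Hspa8* had a step of 0.49, and of 1.02 over all its probes, past 2-fold. Of 27 proteasome subunits 25 were higher at 6 h at an adjusted p under 0.05, none by 2-fold, with a median step of 0.48. *Psma5* had a step of 0.66 (SE 0.05, adjusted p = 3.69e-08). Of 31 translation initiation factors *Eif2b3*, a subunit of the exchange factor for eIF2, rose by 1.29 (SE 0.09, adjusted p = 1.09e-08), and of 19 tRNA synthetases *Vars*, the valine enzyme, rose by 1.11 (SE 0.05, adjusted p = 2.16e-10). The step of *Eif2b3* was 1.05 in experiment 1 and 1.53 in experiment 2 (adjusted p = 0.021 for the difference), and that of *Vars* was 0.93 over all its probes. Neither group had a member that fell (1 lower in each at an unadjusted p under 0.05).

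Of 16 glycolytic enzymes 3 rose and none fell (2 lower at an unadjusted p under 0.05). *Tpi1*, triose phosphate isomerase, lay between 9.76 and 10.57 at 3 h (median 10.05) and between 11.27 and 11.82 at 6 h (median 11.51) and rose by 1.45 (SE 0.06, adjusted p = 8.66e-11). The liver-type phosphofructokinase *Pfkl* rose by 1.03 (SE 0.07, adjusted p = 8.02e-09) and the aldolase *Aldoa* by 1.01 (SE 0.07, adjusted p = 8.93e-09). In experiment 2 *Aldoa* was under 2-fold at 0.95, and in experiment 1 *Pfkl* was, at 0.91. Over all probes *Pfkl* had 0.62. *Ldha*, lactate dehydrogenase A, had a step of 0.12 (SE 0.05, adjusted p = 0.051). No member of a list of 16 amino acid, glucose and iron transporters rose or fell (5 higher and 4 lower at an unadjusted p under 0.05). *Slc2a1*, the glucose transporter GLUT1, had a step of -0.10 (SE 0.08, adjusted p = 0.319), with -0.30 in experiment 1 and 0.09 in experiment 2 (adjusted p = 0.0479 for the difference). In cholesterol and fatty acid synthesis 2 of 23 genes rose and 1 fell. *Fdps*, the farnesyl diphosphate synthase, rose by 1.31 (SE 0.06, adjusted p = 5.09e-10) and *Lss*, lanosterol synthase, by 1.21 (SE 0.07, adjusted p = 1.55e-09), the latter in 1 of its 2 probes, with a mean over both of 0.58. The step of *Fdps* was 1.47 in experiment 1 and 1.15 in experiment 2 (adjusted p = 0.0497 for the difference). *Scd1*, a fatty acid desaturase, fell by 1.41 (SE 0.13, adjusted p = 3.27e-07), with a step of -2.52 in the hybrid culture of experiment 1. Of 18 genes of the ATF4 and unfolded protein responses, *Sdf2l1* alone rose, and none fell (11 lower at an unadjusted p under 0.05).

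**Figure D4:**
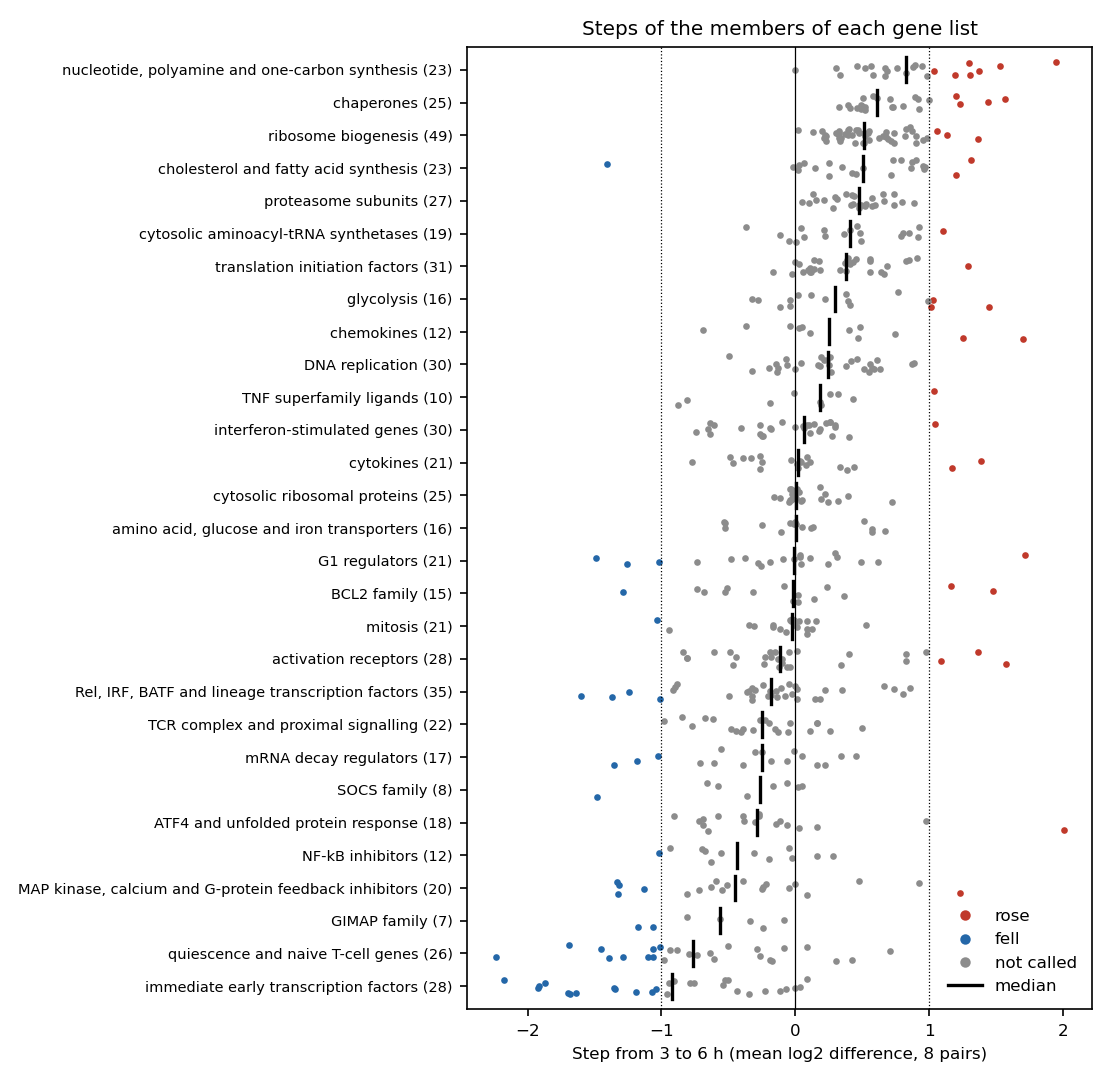
Each row is a gene list with its number of measured members, each point is a member's step from 3 to 6 h (mean log2 difference over 8 pairs, x axis), coloured where the gene rose or fell, and the black mark is the list's median. The immediate early and quiescence lists sit left of 0, with medians of -0.92 and -0.76, and the nucleotide synthesis list right of it, with 0.83.

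The calls among cell cycle genes lay mainly in the G1 regulators. Of all genes, 1.93% rose and 2.29% fell. Of 21 regulators of the G1 phase 1 rose and 3 fell, and at an adjusted p under 0.05 alone 6 were higher and 9 lower. *Cdk4*, the kinase that pairs with D-type cyclins, lay between 10.06 and 11.01 at 3 h (median 10.73) and between 11.85 and 12.64 at 6 h (median 12.38) and rose by 1.72 (SE 0.06, adjusted p = 3.97e-11), with no overlap. *Rb1*, the retinoblastoma protein that this kinase phosphorylates, lay between 11.50 and 11.98 at 3 h (median 11.75) and between 10.05 and 10.56 at 6 h (median 10.24) and fell by 1.49 (SE 0.07, adjusted p = 3.1e-10). *E2f2* fell by 1.26 (SE 0.05, adjusted p = 1.9e-10) and the CDK inhibitor *Cdkn2d* by 1.02 (SE 0.06, adjusted p = 1.8e-09), both after a larger drop between 0 and 3 h, from 10.90 to 8.86 and from 10.52 to 8.75. *Cdkn2d* had -0.96 in experiment 1 and -1.07 in experiment 2, and *E2f2* had -0.76 over all its probes. *Ccnd2*, the D-type cyclin with a median of 14.19 at 3 h, had a step of 0.04 (SE 0.09, adjusted p = 0.739), with -0.18 in experiment 1 and 0.27 in experiment 2 (adjusted p = 0.0455 for the difference). None of 30 DNA replication genes rose or fell by 2-fold (18 higher and 5 lower at an adjusted p under 0.05, 20 and 6 at an unadjusted one), with a median step of 0.24. Of 21 mitosis genes *Cenpa*, the centromeric histone, fell by 1.03 (SE 0.12, adjusted p = 2.41e-06), and none rose (3 higher at an unadjusted p under 0.05). *Cenpa* had -0.93 in experiment 1 and -1.14 in experiment 2, and -0.63 over all its probes. At 24 h the means of *Cenpa* and of the mitotic kinesin *Kif23* were 12.19 and 12.16, against 10.84 and 9.18 at 6 h.

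The promoter of *Cdk4* was added after its values were seen, for the 4 E-boxes in the 250 bases before its start, shown in capitals.
Cdk4 (chr10:127063285-127063534, plus strand): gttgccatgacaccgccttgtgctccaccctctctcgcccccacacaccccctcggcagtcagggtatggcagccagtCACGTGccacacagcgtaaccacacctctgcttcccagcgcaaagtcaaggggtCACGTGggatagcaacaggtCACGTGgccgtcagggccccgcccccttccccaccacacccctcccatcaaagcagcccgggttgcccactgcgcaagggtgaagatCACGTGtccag
An E-box thus stood before *Cdk4*, with a step of 1.72, and before *Mxd4*, with a step of -1.97.

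Secreted factors followed with fewer calls, where 1.93% of all genes rose. Of 21 cytokines 2 rose and none fell (7 lower at an unadjusted p under 0.05). *Il2*, the T cell growth factor, lay between 12.80 and 13.69 at 3 h (median 13.30) and between 13.79 and 15.59 at 6 h (median 14.58) and rose by 1.39 (SE 0.18, adjusted p = 8.88e-06), with a naive mean of 7.70. Its step was 0.79 in experiment 1, below 2-fold, and 1.99 in experiment 2 (adjusted p = 0.00067 for the difference). *Il3* rose by 1.17 (SE 0.17, adjusted p = 3.73e-05), with 0.67 and 1.68 (adjusted p = 0.00975 for the difference). *Tnf*, an early cytokine, went the other way without passing 2-fold, at -0.77 (SE 0.10, adjusted p = 1.67e-05). *Ifng*, the hallmark of Th1 cells, had a step of 0.44 (SE 0.07, adjusted p = 8.03e-05), and *Il4*, that of Th2 cells, of -0.33 (SE 0.09, adjusted p = 0.00587). Of 12 chemokines *Xcl1* rose by 1.70 (SE 0.16, adjusted p = 3.01e-07) and *Ccl1* by 1.26 (SE 0.07, adjusted p = 2.72e-09), and none fell (2 lower at an unadjusted p under 0.05). Of 10 ligands of the TNF superfamily *Tnfsf14*, known as LIGHT, rose by 1.04 (SE 0.11, adjusted p = 9.29e-07), with 0.76 in experiment 1 and 1.32 in experiment 2 (adjusted p = 0.0254 for the difference) and 0.85 over all its probes, and none fell (2 lower at an unadjusted p under 0.05).

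Of 28 activation receptors 3 rose and none fell (12 lower at an unadjusted p under 0.05). *Tnfrsf9*, the costimulatory receptor 4-1BB, lay between 9.67 and 11.03 at 3 h (median 10.32) and between 11.44 and 12.26 at 6 h (median 11.98) and rose by 1.58 (SE 0.13, adjusted p = 1.12e-07), with 0.97 over all its probes. *Crtam*, an adhesion receptor of activated T cells, lay between 7.74 and 9.29 at 3 h (median 8.41) and between 9.53 and 10.26 at 6 h (median 9.93) and rose by 1.37 (SE 0.14, adjusted p = 8.91e-07), with 1.0 in experiment 1 and 1.74 in experiment 2 (adjusted p = 0.0274 for the difference). The third, *Il12rb1*, is described with the cytokine comparisons below. *Cd69*, the classical early surface marker, had reached a median of 15.65 at 3 h and had a step of -0.23 (SE 0.06, adjusted p = 0.00551). *Il2ra*, the high-affinity chain of the IL-2 receptor, had a step of -0.81 (SE 0.14, adjusted p = 0.0002), in 1 of its 2 probes. It was -1.27 in experiment 1 and -0.35 in experiment 2 (adjusted p = 0.00242 for the difference), and the mean over both probes was 0.14, of the opposite sign. Of 15 BCL2 proteins *Bcl2l1*, the survival factor BCL-XL, lay between 7.49 and 8.84 at 3 h (median 8.21) and between 9.32 and 10.24 at 6 h (median 9.69) and rose by 1.48 (SE 0.09, adjusted p = 2.56e-09), the proapoptotic *Bid* rose by 1.16 (SE 0.09, adjusted p = 7.98e-08) and the mitophagy receptor *Bnip3l* fell by 1.29 (SE 0.05, adjusted p = 8.71e-11). Over all probes *Bcl2l1* had 0.91 and *Bid* 0.69, both under 2-fold, and the step of *Bid* was 0.92 in experiment 1 and 1.40 in experiment 2 (adjusted p = 0.0379 for the difference). The near-identical *Bcl2a1b* and *Bcl2a1d*, which probes may not tell apart, had steps of -0.01 and 0.02. That of *Bcl2a1b* was -0.31 in experiment 1 and 0.29 in experiment 2 (adjusted p = 0.00363 for the difference), and that of *Bcl2a1d* was -0.25 in experiment 1 and 0.29 in experiment 2 (adjusted p = 0.0113 for the difference). Of 30 interferon-stimulated genes *Bst2* rose by 1.05 (SE 0.10, adjusted p = 4.72e-07), with 0.95 in experiment 1 and 1.14 in experiment 2, and none fell (10 lower at an unadjusted p under 0.05).

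Of 35 transcription factors of the Rel, IRF, BATF and lineage groups, 4 fell and none rose (7 higher at an unadjusted p under 0.05). *Tox*, an HMG-box factor, lay between 12.40 and 13.26 at 3 h (median 12.84) and between 10.78 and 11.74 at 6 h (median 11.16) and fell by 1.6 (SE 0.06, adjusted p = 9.74e-11) without overlap. *Stat4*, which transmits IL-12 signals, lay between 12.36 and 12.88 at 3 h (median 12.60) and between 10.62 and 11.53 at 6 h (median 11.32) and fell by 1.37 (SE 0.10, adjusted p = 2.9e-08) without overlap. *Id2*, an inhibitor of E proteins, fell by 1.24 (SE 0.06, adjusted p = 8.58e-10), and the nuclear receptor *Rora* by 1.01 (SE 0.05, adjusted p = 2.85e-10). Over all probes *Stat4* and *Id2* both had -0.92 and *Rora* had -0.53, which is under 2-fold. The lineage factors *Tbx21*, which encodes T-bet, and *Gata3* had steps of -0.24 (SE 0.15, adjusted p = 0.226) and -0.32 (SE 0.06, adjusted p = 0.000181). *Rel* and *Irf1* had steps of -0.91 and -0.88, and *Irf4* of 0.80, all under 2-fold. Over all its probes *Irf1* had -1.03, past 2-fold. The step of *Rel* was -1.17 in experiment 1 and -0.66 in experiment 2 (adjusted p = 0.00634 for the difference).

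The 4 cultures shared most of the step. A test across cultures found a difference for 12 of 13817 genes (0.0868%, with 564 at an unadjusted p under 0.05). The step differed between cultures with IL-4 (Th2 and hybrid) and without (Th0 and Th1) for 42 genes (0.304%, with 1055 at an unadjusted p under 0.05), 15 with a higher and 27 with a lower step in the presence of IL-4. It differed with IL-12 (Th1 and hybrid against Th0 and Th2) for 1 gene (0.00724%, with 242 at an unadjusted p under 0.05). Cultures without IL-4 held antibody against IL-4, and those without IL-12 held antibodies against IL-12 and IFN-γ. An effect of the added cytokine and one of the blocking antibodies thus cannot be told apart. These tests have 2 experiments per culture. A fit without the replicate block, which drops the pairing, gave 2, 27 and 0 genes in the same order, and a fit with experiment as a block over the 8 steps gave 270, 490 and 4. Leaving out the hybrid pair of experiment 1 left 11 genes for IL-4, leaving out the Th1 pair of experiment 1 left 18, and leaving out either Th2 pair left 22.

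Several genes with an IL-4 difference had already diverged at 3 h and moved together by 6 h. *Bcl6*, a transcriptional repressor of the follicular helper lineage, had a mean of 12.76 at 3 h without IL-4 and 10.72 with it, and 11.61 and 11.14 at 6 h. Its step was -1.15 without IL-4 and 0.43 with it, a difference of 1.58 (95% confidence interval 1.33 to 1.82, adjusted p = 0.000206). The difference was 1.6 in experiment 1 and 1.55 in experiment 2. *Rragd*, a GTPase that signals amino acids to mTORC1, had a mean of 7.68 at 3 h without IL-4 and 10.08 with it, and 7.59 and 8.60 at 6 h. The difference in its step was -1.39 (95% confidence interval -1.67 to -1.11, adjusted p = 0.00122). A further 4 genes were higher with IL-4 at 3 h and had the lower step with it. The difference was -1.18 (95% confidence interval -1.51 to -0.84, adjusted p = 0.0104) for *Trib1*, with means of 10.15 and 11.91 at 3 h. It was -0.86 (95% confidence interval -1.08 to -0.64, adjusted p = 0.0058) for *Pvr*, the poliovirus receptor homologue, with 9.25 and 10.46. It was -1.23 (95% confidence interval -1.5 to -0.97, adjusted p = 0.00179) for *Abcb1b*, a multidrug efflux pump, with 10.23 and 11.56. It was -0.79 (95% confidence interval -1.0 to -0.57, adjusted p = 0.00935) for *Acer2*, an alkaline ceramidase, with 9.66 and 10.70. *Ipcef1*, a partner of cytohesins, and the kinase *Mast3* were lower with IL-4 at 3 h and higher at 6 h, with differences in the step of 1.42 (95% confidence interval 1.19 to 1.65, adjusted p = 0.000206) and 1.02 (95% confidence interval 0.80 to 1.23, adjusted p = 0.00158).

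Other genes rose further between 3 and 6 h in part of the cultures than in the rest. *Crabp2*, a carrier of retinoic acid, had means of 6.73 and 6.90 at 3 h without and with IL-4, near the background, and 7.25 and 8.89 at 6 h. The difference in its step was 1.48 (95% confidence interval 1.26 to 1.70, adjusted p = 0.000206). *Npas2*, a clock transcription factor, went from 7.04 to 8.53 with IL-4 and measured 6.59 and 6.58 without it, a difference of 1.5 (95% confidence interval 1.13 to 1.87, adjusted p = 0.00484). *Sytl3*, a vesicle-docking protein whose mean step was 1.41, and 0.74 over all its probes, went from 7.59 to 9.77 without IL-4 and from 7.49 to 8.12 with it, a difference of -1.55 (95% confidence interval -1.84 to -1.25, adjusted p = 0.000892). The chemokine *Xcl1* also had the smaller step with IL-4, by -0.99 (95% confidence interval -1.34 to -0.63, adjusted p = 0.0333), with -0.63 in experiment 1 and -1.34 in experiment 2.

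*Il12rb1*, a chain of the IL-12 receptor, was the 1 gene whose step differed with IL-12, and it differed with IL-4 as well. Its level lay between 6.99 and 7.41 at 3 h (median 7.14) and between 7.12 and 9.51 at 6 h (median 8.16). The mean step was 0.32 in Th0, 1.10 in Th1, 0.73 in Th2 and 2.22 in hybrid cultures. Over all pairs the step was 1.09, with 0.97 in experiment 1 and 1.22 in experiment 2, and 0.96 over all its probes. The difference with IL-12 was 1.14 (95% confidence interval 0.86 to 1.42, adjusted p = 0.0408), with 1.22 in experiment 1 and 1.05 in experiment 2. The call was lost without the replicate block and when any pair other than Th0 of experiment 2 was left out. The difference with IL-4 was 0.77 (95% confidence interval 0.49 to 1.05, adjusted p = 0.0356). Added IL-12 and the absence of antibody against IFN-γ cannot be told apart here.

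**Figure D5:**
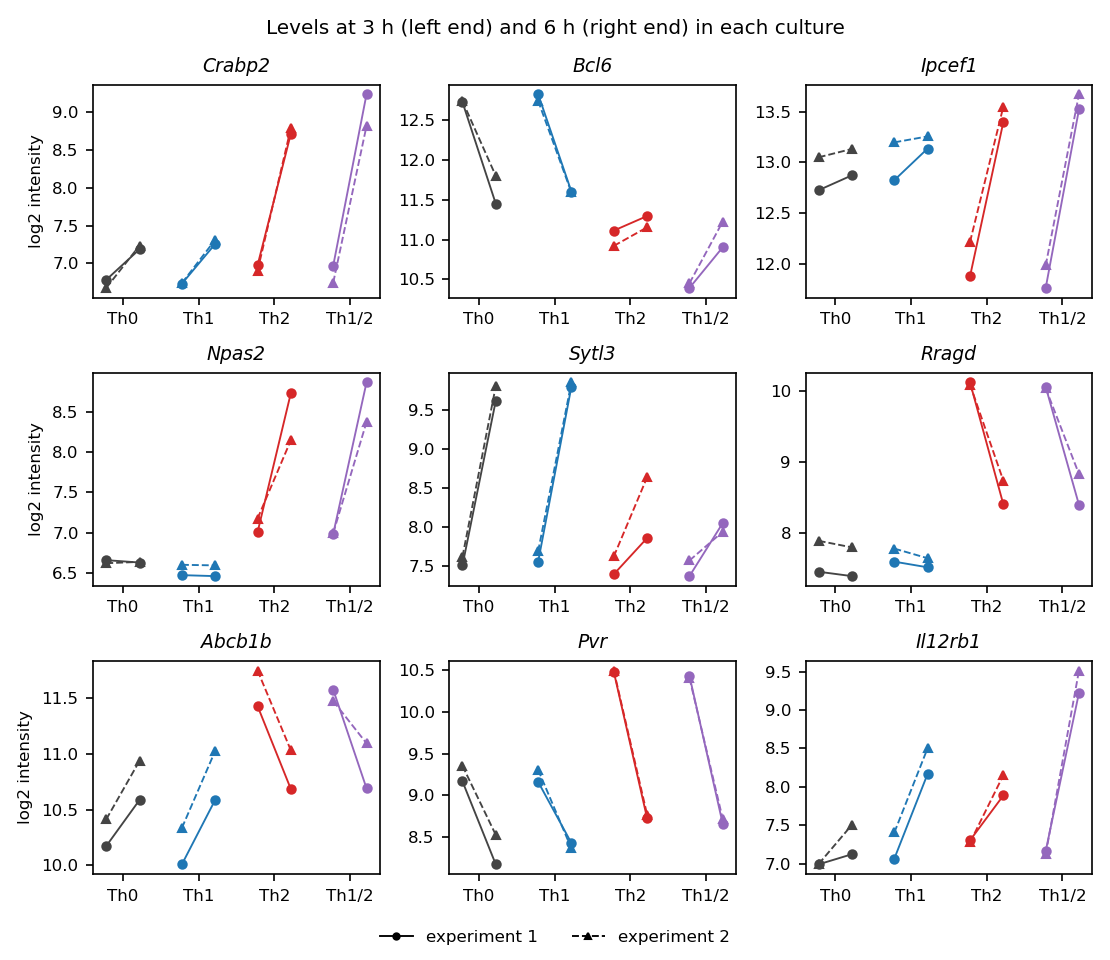
Levels (log2 intensity, y axis) at 3 h (left end of each line) and 6 h (right end) in each culture (x axis) for genes whose step differed with IL-4 or IL-12, with experiments as solid and dashed lines. *Bcl6* and *Rragd* lay apart at 3 h and closer at 6 h, and *Crabp2*, *Sytl3* and *Il12rb1* separated by 6 h.

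Levels after 6 h were read at 12 and 24 h. One hybrid array at 12 h (experiment 1) stands apart from the rest and is left out of the 12 h values. With it no 12 h mean of a gene named here moved by more than 0.33 on the log2 scale. Against naive cells, the 266 rising genes had a median of 0.23 at 3 h and of 1.46 at 6 h, followed by 1.5 after 12 h and 1.57 after 24 h. The 316 falling genes had medians of -0.30 and -1.48 at 3 and 6 h, followed by -1.73 and -1.71. With all 12 h arrays the 12 h medians were 1.53 and -1.73. Genes called in experiment 1 were read in experiment 2, so that the selection did not use the arrays read. Of the 231 that rose, 202 had been within 2-fold of naive cells at 3 h and 14 (6.06%) at least 2-fold above them, and 218 (94.4%) were within 2-fold of their 6 h level at 12 h, against 98.1% of all genes. Read the other way, from experiment 2 to experiment 1, 258 of 371 had been within 2-fold at 3 h and 103 (27.8%) above, and 359 (96.8%) were within 2-fold of their 6 h level at 12 h, against 98.9% of all genes. Of the 288 that fell in experiment 1, 62 had been at least 2-fold above naive cells at 3 h, 55 at least 2-fold below and 171 in between, and 59 were at least another 2-fold lower at 12 h. Of the 384 that fell in experiment 2 these numbers were 62, 119, 203 and 29 in experiment 1. Both ways, most of the genes that rose had been within 2-fold of naive cells at 3 h. So had 12641 of all 13817 genes in experiment 2 and 12251 in experiment 1, so this was not particular to rising genes. Of all genes, 4.19% in experiment 2 and 5.44% in experiment 1 were at least 2-fold above naive cells at 3 h. The shares below were 4.32% and 5.89%, and 161 and 84 genes were at least another 2-fold lower at 12 h. The number of rising genes already higher by 3 h differed between the experiments, as did the number of falling genes that went down further. *Fosl2* went on to 9.67 at 12 h and 9.07 at 24 h, *Il7r* to 9.06 and 9.0, and *Nr4a2* to 8.75 and 8.11.

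Transcripts of other cell types also moved, which bears on the falling genes. Of 11 measured B cell markers 3 fell, *H2-Eb1* by 1.26, *Cd74* by 1.2 and *H2-Ab1* by 1.17, all genes of the MHC class II pathway, and none rose (1 higher at an unadjusted p under 0.05). The step of *H2-Eb1* was -1.53 in experiment 1 and -0.99 in experiment 2 (adjusted p = 0.0406 for the difference). That of *H2-Ab1* was -1.38 in experiment 1 and -0.96 in experiment 2 (adjusted p = 0.0452 for the difference), and -0.81 over all its probes, where *Cd74* had -0.99. The summed intensity of the 11 markers lay between 6747 and 13205 at 3 h and between 3462 and 7939 at 6 h, while the defining B cell gene *Ms4a1* stayed near the background at 7.04 and 7.09 and *Pax5* did not pass the filter. Of 11 markers of monocytes, macrophages and dendritic cells the lysozymes *Lyz1* and *Lyz2*, which probes may not tell apart, fell by 1.47 and 1.16, with summed intensities between 5191 and 6967 at 3 h and between 4129 and 4745 at 6 h. Over all probes *Lyz1* had -0.57 and *Lyz2* -0.94. *Csf1r* had means of 7.15 and 6.81. Of 4 red cell markers *Hba-a1* fell by 1.04, with -1.09 in experiment 1 and -0.98 in experiment 2 and sums between 6174 and 10923 at 3 h and between 2995 and 5494 at 6 h. None of 5 NK cell markers was called (2 higher and 2 lower at an unadjusted p under 0.05), with sums between 4717 and 9997 and between 4049 and 6514, nor of 6 neutrophil markers (0 higher and 2 lower), with sums between 614 and 1100 and between 619 and 899. The CD8 chain *Cd8b1* had means of 11.54 and 11.70 and *Cd8a* did not pass the filter. The part of these cells in the fall of other genes was not tested.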

How the data were processed

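Illumina Mouse Sentrix-6 bead arrays measured 37 conditions in 2 experiments, 74 arrays in all. The deposited values are linear normalised intensities per probe. By the methods of the study the authors corrected the background, quantile-normalised the arrays and took log2. The software was not given in the sources used here. For the comparisons the deposited intensity was put on the log2 scale without a second normalisation. All columns belong to a labelled sample.

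Of 45135 probes, 34773 had 1 gene symbol in the platform annotation, 18 several and 10344 none. A probe was kept if its mean in any 1 condition exceeded the overall median (6.77, log2), and the brightest probe stood for a gene (13817 genes, 5863 with several probes). Paired 6 h minus 3 h differences were tested with limma 3.58.1 in R 4.3.3 (eBayes, two-sided) and Benjamini-Hochberg adjustment over all genes, with at least 2-fold and an adjusted p under 0.05 as the call. The median residual SD of a single array value in the paired fit was 0.112. The number of arrays limits the precision. Contrasts between cultures used the same 8 differences. Same-numbered samples of a culture deviated together (correlation of deviations from the group means 0.302 to 0.545 over 8 pairs, median 0.433), and the number marks the experiment.

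Named were the 12 largest rises and falls with 1 direction in all 8 pairs, up to 4 called members in each direction and up to 2 bright uncalled members of each list, a set of defining members, and the 5 genes of the IL-4 and 3 of the IL-12 contrast with the smallest p in each direction. Other list members were named after their values were seen. The members and lists were chosen with earlier results of these data known. Alternatives covered the pairing, the experiments, each pair left out, the probe filter and choice, the normalisation, the variance model and the fold.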

Additional observations from a re-analysis of the deposited data

Results flagged for a closer look

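Among 156 named genes, 4 had 1 pair whose step lay far from the other 7, where about 1 in 20 groups is singled out by chance. The Th0 pair of experiment 2 had a step of 0.74 for *Ccnd2*, with the others between -0.28 and 0.19, of 1.25 for *Irf4*, with the others between 0.65 and 0.87, and of 1.66 for *Lss*, with the others between 0.98 and 1.29. The hybrid pair of experiment 1 had a step of -2.52 for *Scd1*, with the others between -1.52 and -0.91.

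The step of 13 named genes differed between cultures with and without IL-4. With IL-4 it was higher by 1.58 for *Bcl6*, 1.5 for *Npas2*, 1.48 for *Crabp2*, 1.42 for *Ipcef1*, 1.02 for *Mast3* and 0.77 for *Il12rb1*. The signed difference was -1.55 for *Sytl3*, -1.39 for *Rragd*, -1.23 for *Abcb1b*, -1.18 for *Trib1*, -0.99 for *Xcl1*, -0.86 for *Pvr* and -0.79 for *Acer2*. *Il12rb1* also differed with IL-12, by 1.14. Among the 4 cultures the step differed at an adjusted p (limma) of 0.00203 for *Bcl6*, *Crabp2* and *Ipcef1*, 0.00881 for *Mast3* and *Sytl3*, 0.00887 for *Il12rb1*, 0.00922 for *Rragd*, 0.0157 for *Abcb1b*, 0.0373 for *Npas2* and 0.0491 for *Pvr*.

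Of 5871 probes above the filter that the annotation pairs with no single gene symbol, 53 rose and 77 fell by the same rule, and they enter none of the comparisons above.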

How the results depend on the processing

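The counts of 266 rising and 316 falling genes, and the genes themselves, were the same without the replicate block. They were also the same with all 74 arrays in 1 fit, with the cultures of an experiment averaged, with experiment as a random block, under both other filters and with a trend in the variance. Apart from the filters, these fits give each gene the same mean step. The adjusted p alone passed 49.3% of genes and 4.21% were called, so the 2-fold criterion set the calls. Equal counts were thus largely fixed in advance and say little about the pairing. Averaging the probes of a gene gave 175 and 196, a 1.5-fold threshold 1059 and 1008, and no fold threshold 3609 and 3206. Leaving out 1 pair gave 254 to 283 and 300 to 340. Without the replicate block 2 genes differed among cultures, 27 with IL-4 and 0 with IL-12, where the paired fit gave 12, 42 and 1. With experiment as a block over the steps the counts were 270, 490 and 4. Averaged probes left 0 for IL-12. Leaving out 1 pair gave 6 to 10 genes among cultures, 11 to 39 with IL-4 and 0 to 1 with IL-12. The share of immediate genes that fell was 8.24%, and 10.7% with the experiments exchanged, 5.65% at 1.5-fold and 13.3% at 4-fold. The cause of these differences was not tested.

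Of 1560 steps of 156 named genes under 10 settings 1491 kept their side of the threshold, 57 lost the call, 12 gained it and no called step changed sign, and with 1 pair left out 1213 of 1248 kept it. Settings that leave the mean step of a gene unchanged could hardly move a call. Averaged probes took 33 named genes below 2-fold and 3 past it, each given in the report with its value. Experiment 1 alone took 18 below it, *Il2* and *Il3* among them, and experiment 2 alone 6, *Tnfaip3* among them. Steps of probes near the background or near saturation are compressed.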
